A study of Mus musculus with 4 samples.

Results

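The miR-26 family is represented by mature miRNAs mmu-miR-26a-5p and mmu-miR-26b-5p, which were taken by name from the SI-Exos and the serum exosome tables. Both names have a row in both tables, so that 2 of 668 miRNAs are described, and all measured miRNAs serve as the background. The study compared exosomes from the small intestinal epithelium (SI-Exos) and from serum of male C57BL/6J mice at 3 and 18 months of age fed standard chow, and the labels name no other treatment or genotype. Exosomes are small vesicles that carry RNA between cells, and they were collected by ultracentrifugation from epithelium and from the serum of blood taken from the heart. There was 1 small RNA library per condition, named here 3m-SI-Exos, 18m-SI-Exos, 3m-serum-exos and 18m-serum-exos, and the sources used here do not give the number of mice behind a library. No difference between ages or sources therefore has a replicate check, and every interval given is an exact (Clopper-Pearson or conditional) 95% interval that covers counting error only.

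A miRNA directs the silencing complex to messenger RNAs mainly through its seed, bases 2 to 8 of the mature strand. The miR-26 miRNAs are widely expressed and lie in introns of genes for small CTD phosphatases, enzymes that act on the tail of RNA polymerase II. They are known for repressing the chromatin enzyme Ezh2 and for restraining growth. In cultured human fat cell progenitors they favour fat cell formation, including the brown and beige kind, whereas mice that lack the whole family gain white fat, so that their role in adipose tissue depends on the setting.

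The mature sequences are shown because the seed, in capitals, is shared while the rest is not. They were taken from RefSeq on build GRCm38.p6, where both names were matched, and are identical to those in the deposited tables.

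mmu-miR-26a-5p: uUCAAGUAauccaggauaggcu
mmu-miR-26b-5p: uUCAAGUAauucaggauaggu

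Counted from the 5′ end, and with miR-26a-5p as the reference, the strands differed by C11U and C21U, and miR-26a-5p is 22 bases long against 21 for miR-26b-5p. Among 1679 mature names in RefSeq only these 2 have this seed. No other row of either table has it, so the pair accounted for every counted miRNA read with the seed UCAAGUA. miR-26a-5p comes from a pair of genes with 1 mature sequence. Mir26a-1 encodes it at chr9:119031811-119031832, within intron 4 or 5 of Ctdspl, depending on the transcript. Mir26a-2 encodes it at chr10:126995543-126995564, within intron 5 of Ctdsp2. Mir26b encodes miR-26b-5p at chr1:74394324-74394344, within intron 4 of Ctdsp1. All these genes lie on the plus strand, the strand of their hosts. The reads of Mir26a-1 and Mir26a-2 cannot be told apart, and the deposited tables give the precursor of Mir26a-2 for the name. The sources used here do not give the mismatches that the authors allowed, so an exchange of reads between miR-26a-5p and miR-26b-5p, which differ at 1 position before the last bases, was not tested.

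The libraries held 212215 miRNA reads in 3m-SI-Exos, 71353 in 18m-SI-Exos, 832002 in 3m-serum-exos and 778237 in 18m-serum-exos, and 1 read stood for 1.20 to 14.01 CPM, counts per 1000000 miRNA reads. The miRNA reads were 1.14% of the authors' library total in 3m-SI-Exos, 0.411% in 18m-SI-Exos, 5.89% in 3m-serum-exos and 5.31% in 18m-serum-exos. Of 7 miRNAs typical of the intestinal epithelium, all were found in 3m-SI-Exos and 6 in 18m-SI-Exos, where miR-200b-3p was at 0, and together they took 26.7% and 8.17% of the miRNA reads, against 1.68% and 0.655% in serum exosomes at 3 and 18 months. Of these miRNAs only miR-192-5p and miR-194-5p had a higher share at 3 than at 18 months in serum exosomes. The 4 miRNAs of red blood cells took 0.630% and 3.77% in SI-Exos (miR-144-5p was at 0 in 3m-SI-Exos) and 21.97% and 53.8% in serum exosomes, and the liver's miR-122-5p took 0.0245% and 0.0350%, and 38.4% and 2.65%.

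miR-26a-5p was among the most abundant miRNAs of every library. It had 10089 reads in 3m-SI-Exos, 1946 in 18m-SI-Exos, 8963 in 3m-serum-exos and 12745 in 18m-serum-exos. Scaled to the miRNA total, these were 47541 CPM (46640 to 48455), 27273 CPM (26090 to 28494), 10773 CPM (10552 to 10997) and 16377 CPM (16096 to 16661). Its level was thus highest in 3m-SI-Exos and lowest in 3m-serum-exos, and neighbours in this order differed beyond counting error, by 1.74-fold between the SI-Exos libraries, 1.67-fold between the 18-month libraries and 1.52-fold between the serum libraries. Its rank was 7 of 326 detected miRNAs in 3m-SI-Exos, 8 of 258 in 18m-SI-Exos, 14 of 486 in 3m-serum-exos and 10 of 496 in 18m-serum-exos.

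By CPM, miR-26b-5p followed another order. It had 577 reads in 3m-SI-Exos, 100 in 18m-SI-Exos, 2751 in 3m-serum-exos and 3793 in 18m-serum-exos, that is 2719 CPM (2502 to 2950), 1401 CPM (1140 to 1704), 3306 CPM (3184 to 3432) and 4874 CPM (4720 to 5031). Its level by this measure was highest in 18m-serum-exos and lowest in 18m-SI-Exos, the reverse of the order of sources seen for miR-26a-5p. Neighbouring libraries in this order differed by 1.47-fold, 1.22-fold and 1.94-fold, with intervals without 1. It ranked 41 in 3m-SI-Exos, 56 in 18m-SI-Exos, 31 in 3m-serum-exos and 29 in 18m-serum-exos.

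**Figure D1:**
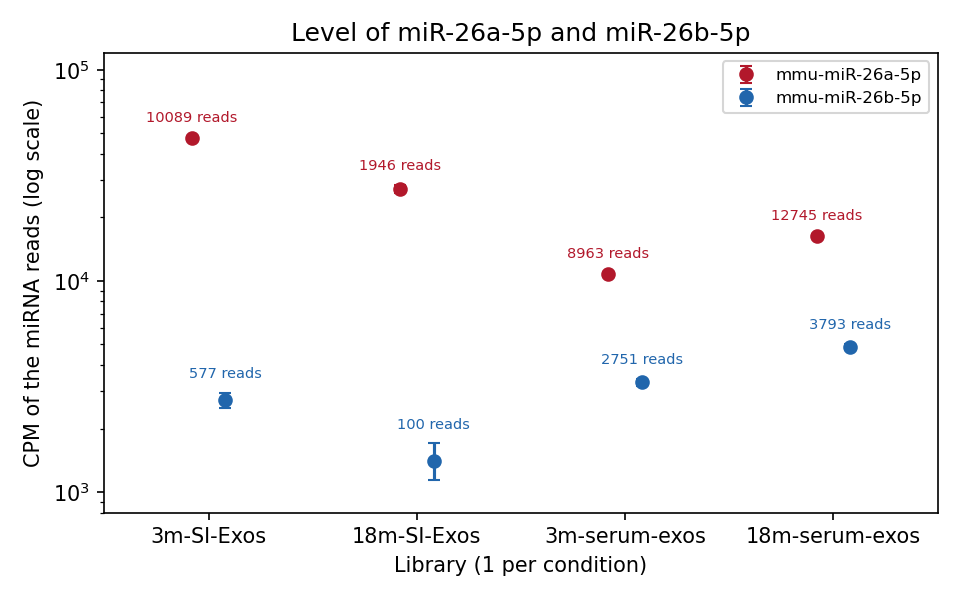
Level of miR-26a-5p (red) and miR-26b-5p (blue) in the 4 libraries, in CPM of the miRNA reads on a log axis, with exact 95% intervals of the counts and the number of reads beside each point. miR-26a-5p runs from 10773 to 47541 CPM and is highest in SI-Exos, whereas miR-26b-5p runs from 1401 to 4874 CPM and is highest in serum exosomes.

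Both miRNAs together took 5.03% of the miRNA reads in 3m-SI-Exos (4.93 to 5.12%), 2.87% in 18m-SI-Exos (2.75 to 2.99%), 1.41% in 3m-serum-exos (1.38 to 1.43%) and 2.13% in 18m-serum-exos (2.09 to 2.16%). The seed was thus most abundant in the 3m-SI-Exos library by this measure. In the authors' RPM, reads per 1000000 of a larger library total, the order was different, with 573 RPM in 3m-SI-Exos, 118 in 18m-SI-Exos, 829 in 3m-serum-exos and 1129 in 18m-serum-exos. By RPM both serum libraries exceeded both SI-Exos libraries, for each miRNA as for their sum. In the same order of libraries miR-26a-5p had 542, 112, 634 and 870 RPM, and miR-26b-5p had 31.0, 5.76, 195 and 259 RPM. Fewer vesicles and fewer copies per vesicle cannot be told apart in these libraries.

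The clearest difference between the sources was in the balance of the pair, which does not depend on how a library is scaled. In SI-Exos there were 17.5 reads of miR-26a-5p per read of miR-26b-5p at 3 months (16.1 to 19.0) and 19.5 at 18 months (15.9 to 24.0). In serum exosomes there were 3.26 at 3 months (3.12 to 3.40) and 3.36 at 18 months (3.24 to 3.49). miR-26b-5p made up 5.41% of the miR-26 reads in 3m-SI-Exos, 4.89% in 18m-SI-Exos, 23.5% in 3m-serum-exos and 22.9% in 18m-serum-exos, and the intervals of the 2 sources did not overlap. The ratio was 5.37-fold higher in SI-Exos than in serum exosomes at 3 months (4.88 to 5.91) and 5.79-fold at 18 months (4.72 to 7.18). Between the ages the balance differed by no more than counting error, with a 3-month ratio of 0.899 times the 18-month ratio in SI-Exos (0.715 to 1.12) and 0.970 times in serum exosomes (0.916 to 1.03). These intervals leave room for a change of up to 1.40-fold in SI-Exos and 1.09-fold in serum exosomes.

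**Figure D2:**
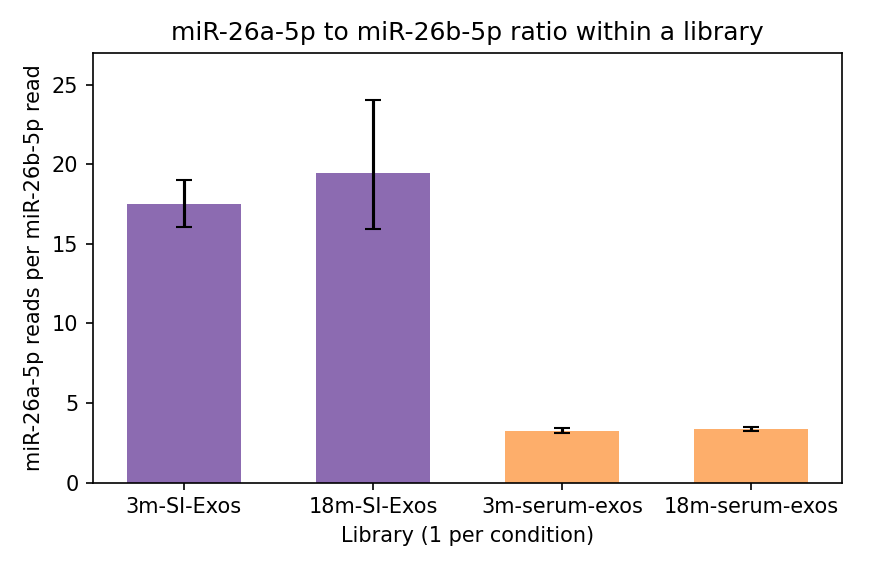
Reads of miR-26a-5p per read of miR-26b-5p in each library (bars, linear axis from 0), with exact 95% intervals of the counts. Both SI-Exos libraries (purple) lie at 17.5 and 19.5, and both serum libraries (orange) at 3.26 and 3.36.

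To place this balance among other families, the same ratio was taken for every pair of known miRNAs with a common seed and at least 10 reads in all 4 libraries, which gave 50 pairs of 40 miRNAs with 15 seeds, miR-26 included. This comparison was chosen after the values of miR-26 had been seen, and pairs of 1 family share members, so no test was made. Most pairs lie within the let-7 family. Changes in either direction were taken as folds above 1, so counting error alone raises the fold of pairs with few reads. Between sources the ratio of a pair differed by a median of 2.05-fold at 3 months and 4.99-fold at 18 months, and 13 and 22 pairs differed by more than the miR-26 pair. A shift of this size between sources was therefore not particular to miR-26. Between ages the ratio of a pair differed by a median of 2.11-fold in SI-Exos and 1.47-fold in serum exosomes, against 1.11-fold and 1.03-fold for miR-26. In these comparisons 45 and 46 of the 50 pairs differed by more than the miR-26 pair did.

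**Figure D3:**
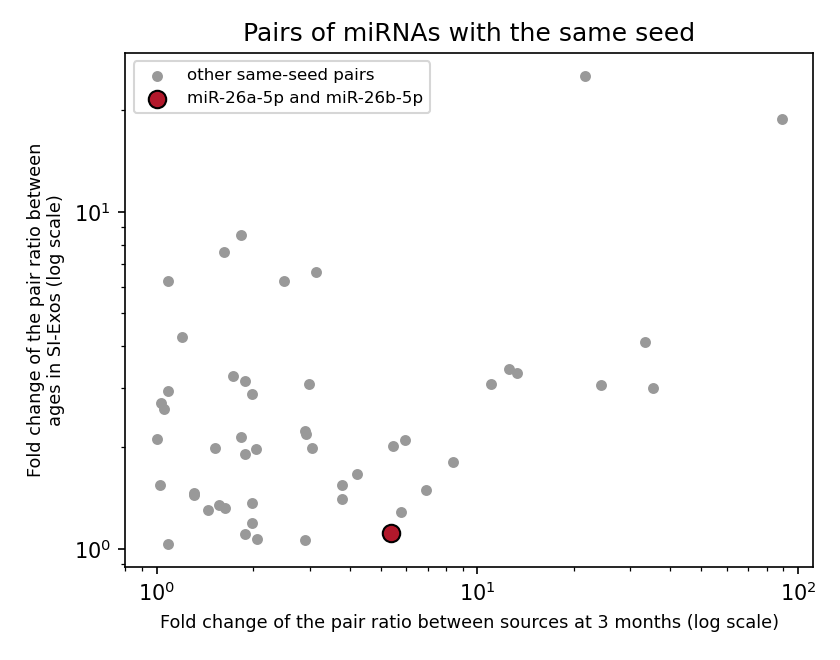
Fold change of the read ratio within each of 50 pairs of miRNAs with the same seed, between SI-Exos and serum exosomes at 3 months (horizontal log axis) and between 3 and 18 months in SI-Exos (vertical log axis), with changes in either direction drawn as folds above 1. The miR-26 pair (red) lies at 5.37-fold between sources and at 1.11-fold between ages, near the lower edge of the vertical axis.

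As shares of the miRNA reads, both miRNAs were lower at 18 than at 3 months in SI-Exos and higher in serum exosomes. For a call, the interval had to exclude 1 and the ratio to reach 2-fold, which a library at 0 also met. In SI-Exos, miR-26a-5p was 1.74-fold higher at 3 months than at 18 months (1.66 to 1.83) and miR-26b-5p 1.94-fold higher (1.57 to 2.42). Neither was called, while of 214 measured miRNAs, those that reached 10 reads in either library, 32.7% were called higher and 29.4% lower at 3 months. Both lay near the middle of the miRNAs of this comparison, since 96 of the 214 had a higher ratio than miR-26a-5p and 93 a higher ratio than miR-26b-5p. Between these libraries the epithelial miRNAs together went from 26.7% to 8.17% and those of red blood cells from 0.630% to 3.77% of the reads. Of the epithelial miRNAs only miR-215-5p was not higher at 3 months, with a log2 ratio of -0.12. The part of these miRNAs in the miR-26 ratios was not tested.

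In serum exosomes, the ratio of 3 to 18 months was 0.658 for miR-26a-5p (0.640 to 0.676) and 0.678 for miR-26b-5p (0.646 to 0.713). These correspond to levels 1.52-fold and 1.47-fold higher at 18 months. Neither was called, while 18.3% of 251 measured miRNAs were called higher and 25.9% lower at 3 months. Of the 251, 148 had a higher ratio than miR-26a-5p and 145 a higher ratio than miR-26b-5p. Only 39.8% of all had a ratio above 1, so most miRNAs shared the direction of miR-26. Between these libraries the red blood cell miRNAs went from 21.97% to 53.8% and miR-122-5p from 38.4% to 2.65% of the reads, and their part in the result was not tested. Scaled to the reads outside the 5 most abundant miRNAs, the ratios were 0.863 (0.840 to 0.886) and 0.890 (0.847 to 0.935).

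The directions in the 2 sources were opposite, and they stayed so under all 5 scalings tried, with ratios in SI-Exos between 1.57 and 4.84 for miR-26a-5p and between 1.75 and 5.39 for miR-26b-5p, and ratios in serum exosomes between 0.658 and 0.863 and between 0.678 and 0.890. The calls in SI-Exos did depend on the scaling. By the authors' RPM the ratios there were 4.84 and 5.39 and both miRNAs were called higher at 3 months, beside 131 miRNAs called higher and 31 lower in place of 70 and 63. With DESeq2 size factors they were 2.49 and 2.77 and both were called, beside 100 higher and 50 lower. With TMM factors only miR-26b-5p was called, at 2.04, beside 74 higher and 63 lower. In serum exosomes neither was called under any of the 5, although the split over all miRNAs went from 46 higher and 65 lower to 67 and 38 with totals without the 5 most abundant. Of 156 miRNAs measured in both sources, 53, or 34.0%, had like miR-26 a ratio above 1 in SI-Exos and below 1 in serum exosomes.

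**Figure D4:**
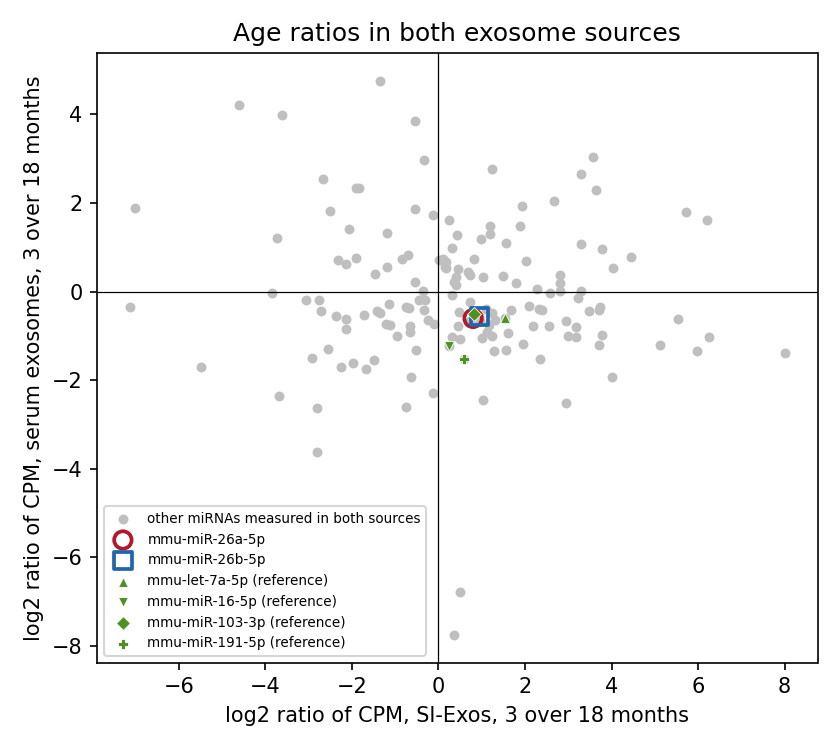
Log2 ratio of CPM at 3 months over 18 months in SI-Exos (horizontal axis) and in serum exosomes (vertical axis) for 156 miRNAs measured in both, with 0.5 reads added to each library. miR-26a-5p (0.80 and -0.60) and miR-26b-5p (0.95 and -0.56) lie side by side in the lower right field, where the 4 reference miRNAs (green) also lie.

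Set against single miRNAs that are widely used as a reference in small RNA assays, the age ratio of miR-26 depended on the reference. miR-16-5p, a miRNA rich in blood cells, had 727 reads in 3m-SI-Exos, 207 in 18m-SI-Exos, 15945 in 3m-serum-exos and 35056 in 18m-serum-exos. Relative to it, miR-26a-5p was higher at 3 months in both sources, 1.48-fold in SI-Exos (1.25 to 1.74) and 1.55-fold in serum exosomes (1.496 to 1.598). miR-191-5p had, in this order of libraries, 1418, 316, 4221 and 11360 reads. Relative to it, miR-26a-5p was 1.16-fold higher at 3 months in SI-Exos (1.01 to 1.32) and 1.89-fold higher in serum exosomes (1.81 to 1.98). let-7a-5p, a member of the let-7 family that promotes differentiation, had 11483, 1318, 7107 and 10044 reads. Relative to it, the direction in SI-Exos turned, with miR-26a-5p at 0.595 times its 18-month value (0.552 to 0.642), and in serum exosomes the value was 0.994 (0.954 to 1.04). miR-103-3p had only 44, 8, 36 and 48 reads, and relative to it the intervals were wide, 0.383 to 2.03 for miR-26a-5p in SI-Exos and 0.596 to 1.49 for it in serum exosomes. miR-26b-5p gave the same directions as miR-26a-5p against miR-16-5p and miR-191-5p in both sources. Against let-7a-5p its value in SI-Exos was 0.662 (0.530 to 0.834), and in serum exosomes it was 1.03 (0.967 to 1.09).

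Levels in the sources were compared at each age over the 316 miRNAs with a row in both tables, which were made separately. At 3 months miR-26a-5p was 4.41-fold higher in SI-Exos than in serum exosomes by CPM (4.29 to 4.54) and was called, as were 44.3% of 235 measured miRNAs in this direction, while 28.1% were called lower. miR-26b-5p, at 0.822 (0.7504 to 0.8999), fell short of one. At 18 months miR-26a-5p, at 1.67 (1.59 to 1.75), fell short of a call. miR-26b-5p had a ratio of 0.288 (0.233 to 0.351) and was called lower in SI-Exos, as were 31.2% of 231 measured miRNAs, while 34.2% were called higher.

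Of these source ratios, the direction for miR-26b-5p was the same under all 5 scalings and that for miR-26a-5p was not. At 3 months, miR-26b-5p lay between 0.159 by the authors' RPM and 0.822 by CPM, and it was called lower in SI-Exos under every scaling but CPM. At 18 months it lay between 0.0222 and 0.293 and was called lower under all 5. miR-26a-5p lay at 3 months between 0.855 by RPM and 4.41 by CPM, with 1.98 by TMM factors, where it was not called. At 18 months it lay between 0.129 by RPM, where it was called lower in SI-Exos, and 1.70 with totals without the 5 most abundant, with 0.741 by TMM factors and 0.878 by DESeq2 size factors. Over all measured miRNAs at 3 months, 104 were called higher and 66 lower in SI-Exos by CPM, against 50 and 133 by RPM and 79 and 105 by TMM factors. At 18 months, 79 were called higher and 72 lower by CPM, against 41 and 173 by RPM and 63 and 107 by TMM factors. The distance between CPM and RPM is set by the share of miRNA reads in the library total, which was lower in both SI-Exos libraries, as given above.

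**Figure D5:**
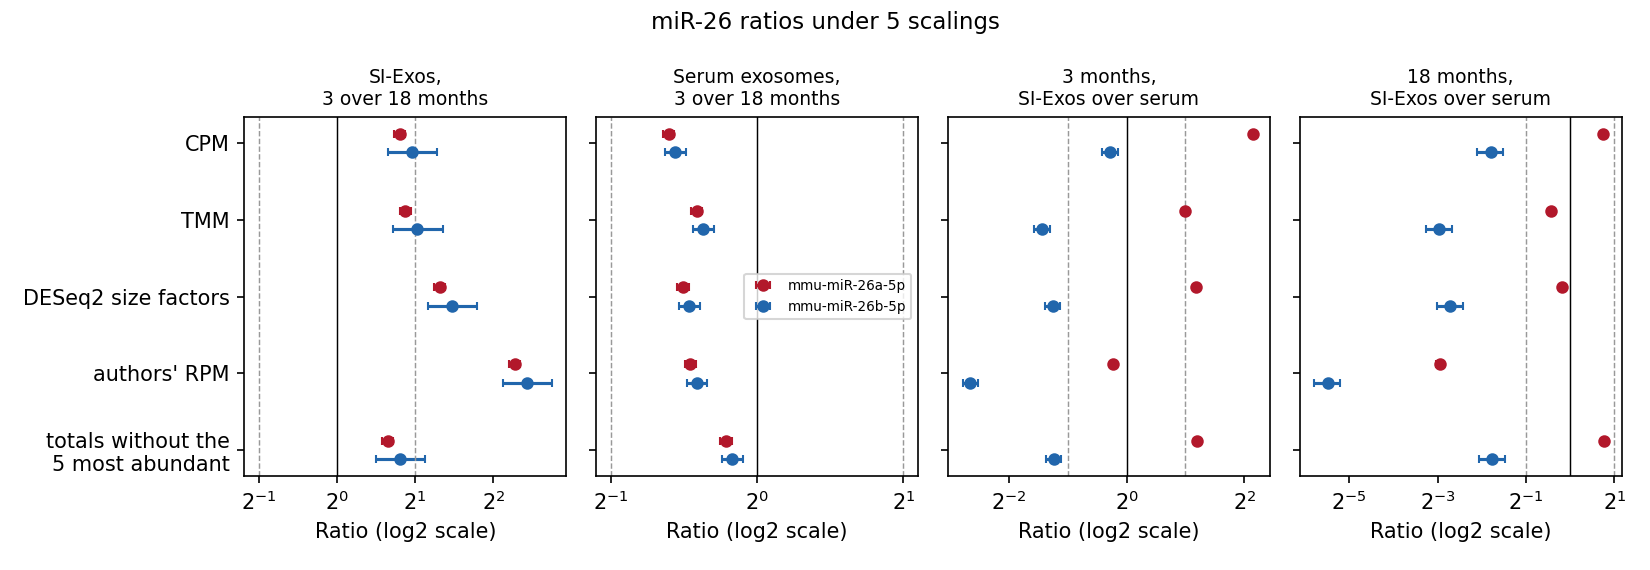
Ratios of miR-26a-5p (red) and miR-26b-5p (blue) under 5 scalings in the 4 comparisons, on log2 axes whose range differs between panels, with exact 95% intervals of the counts. The solid line marks 1 and the dashed lines mark the 2-fold limits of a call. The distance between the red and the blue points is the same under every scaling of a comparison and is wide only between sources.

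Little was counted from the other arm of the miR-26 hairpins. miR-26b-3p had 1 read in 3m-SI-Exos and 2 reads in each of the other libraries, against 577, 100, 2751 and 3793 reads of miR-26b-5p. miR-26a-1-3p and miR-26a-2-3p had 0 reads in 3m-serum-exos and 1 read each in 18m-serum-exos, against 8963 and 12745 reads of miR-26a-5p, and neither has a row in the SI-Exos table. A count of 0 allows up to 3 reads, or 0.0335% of the reads of miR-26a-5p in 3m-serum-exos. In SI-Exos, where it is the only miR-26 3p arm with a row, miR-26b-3p took 0.00937% of all miR-26 reads at 3 months (0.000237 to 0.0522%). At 18 months it took 0.0977% (0.0118 to 0.352%). All 3p arms of miR-26 together took 0.0171% in 3m-serum-exos (0.00207 to 0.0617%) and 0.0242% in 18m-serum-exos (0.00659 to 0.0619%). Over all known miRNAs named by an arm, 3p arms took 35.2%, 66.7%, 26.8% and 29.8% of the reads in the same order of libraries. The 18m-SI-Exos library, in which 3p arms held most reads, thus had 2 reads of miR-26b-3p beside 2046 miR-26 reads of the 5p arm.

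By the distance between log2 CPM profiles, each centred on its mean over the 4 libraries, the 81 other miRNAs with at least 10 reads in every library were ranked for likeness to each member. With 4 points per profile this is a description only. Nearest to miR-26a-5p were miR-218-5p (distance 0.32), let-7a-5p (0.55), miR-23b-3p (0.61), miR-30a-3p (0.75) and let-7c-5p (0.84), against a median distance of 2.48. Nearest to miR-26b-5p were miR-146a-5p (0.33), miR-652-3p (0.45), miR-27a-3p (0.59), miR-532-5p (0.71) and miR-872-5p (0.72), against a median of 2.56. The closest of them, miR-146a-5p, a miRNA known from immune cells, had 5843 CPM in 3m-SI-Exos, 3504 in 18m-SI-Exos, 9020 in 3m-serum-exos and 14258 in 18m-serum-exos. miR-218-5p had 872, 519, 258 and 302 CPM in the same order. The lists had no name in common, and the members ranked 39 and 40 on each other's lists, at a distance of 2.48.

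The neighbours in rank show how close other miRNAs came. In 3m-SI-Exos miR-26a-5p stood between let-7a-5p at 54110 CPM and let-7g-5p at 33933 CPM, and in 18m-SI-Exos between miR-143-3p at 32556 CPM and the epithelial miR-429-3p at 26866 CPM, from which it did not differ beyond counting error. In 3m-serum-exos it stood between miR-99a-5p at 11298 CPM and miR-24-3p at 10442 CPM, and in 18m-serum-exos between miR-143-3p at 16875 CPM and miR-22-3p at 15592 CPM. miR-26b-5p stood between the epithelial miR-200a-3p at 2893 CPM and miR-652-3p at 2356 CPM in 3m-SI-Exos, and did not differ from miR-200a-3p beyond counting error. In 18m-SI-Exos its neighbours were a predicted miRNA at 1416 CPM and miR-145a-5p of smooth muscle at 1331 CPM, neither of which differed from it beyond counting error. In serum exosomes its neighbours were miR-93-5p at 3536 CPM and let-7b-5p at 3037 CPM at 3 months, and let-7d-5p at 5315 CPM and miR-192-5p at 4132 CPM at 18 months.

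Among miRNAs known to act on fat cell formation, the miR-26 miRNAs were neither the strongest nor the weakest in their age ratios. Of 18 miRNAs listed as favouring it, miR-26 included, 16 were measured in each source. In SI-Exos 4 were called higher and 3 lower at 3 months, and 9 were not called, with a median log2 ratio of 0.81, or 0.53 with 1 member of 0 reads at its bound, against 0.45 for all measured miRNAs, or 0.30 with zeros at their bound. Over all measured miRNAs there, 32.7% were called higher and 29.4% lower, so that the 4 and 3 of 16 did not exceed the background. Without miR-26 the list median was 0.54, or 0.22 with that member at its bound. In serum exosomes 4 were called higher and 6 lower, with a median of -0.53 (-0.34 without miR-26), against -0.38 for all, of which 18.3% were called higher and 25.9% lower. By the authors' RPM the calls were 13 higher and 0 lower in SI-Exos, where that scaling called 131 of all 214 miRNAs higher and 31 lower. In serum exosomes they were 4 higher and 3 lower, beside 51 and 52 of all 251.

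The other abundant members of this list were miR-143-3p, miR-378a-3p and miR-21a-5p. miR-143-3p was higher at 3 months in both sources, 2.28-fold (2.18 to 2.38) and 2.48-fold (2.43 to 2.53), unlike miR-26. miR-378a-3p, which lies within the gene for a coactivator of mitochondrial metabolism, had a ratio in SI-Exos of 1.19 (1.11 to 1.29), and in serum exosomes one of 3.08 (2.94 to 3.23). miR-21a-5p had ratios of 0.731 (0.659 to 0.813) and 0.884 (0.856 to 0.913). Called in opposite directions were miR-30c-5p, miR-30d-5p and miR-375-3p, with the directions of miR-26. miRNAs outside the lists, such as let-7g-5p and miR-429-3p, were called in these directions too. For miR-30d-5p the ratios were 2.05 (1.43 to 3.00) and 0.482 (0.462 to 0.504), and for miR-375-3p, a miRNA of hormone-secreting cells, 2.94 (2.55 to 3.40) and 0.403 (0.340 to 0.475). miR-30c-5p had 82 and 3 reads in SI-Exos and 104 and 196 in serum exosomes. miR-320-3p was called the other way round, with 30 and 38 reads in SI-Exos and 303 and 56 in serum exosomes, and miR-146b-5p and miR-204-5p were called lower at 3 months in both, with no SI-Exos library above 14 reads.

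Of 10 miRNAs listed as opposing fat cell formation, 5 were measured in SI-Exos and 8 in serum exosomes. In SI-Exos 2 were called higher and 1 lower at 3 months with a median log2 ratio of 0.45, beside 0.45 over all measured miRNAs, of which 32.7% were called higher and 29.4% lower. In serum exosomes 2 were called higher and 2 lower with a median of -0.70, against -0.38 for all, of which 18.3% and 25.9% were called. By the authors' RPM 3 were called higher and 0 lower in SI-Exos, beside 131 and 31 of all. miR-27b-3p, a repressor of the fat cell regulator Pparg, was higher at 3 months in both, 2.93-fold (2.61 to 3.31) and 2.13-fold (2.052 to 2.201). miR-27a-3p had ratios of 1.37 (1.16 to 1.61) and 0.580 (0.5602 to 0.6003), and miR-145a-5p 0.641 (0.497 to 0.830) and 0.584 (0.5005 to 0.6813), and neither was called in either source. miR-93-5p was called higher in SI-Exos, on 292 and 7 reads, and lower in serum exosomes, with a ratio of 0.437 (0.418 to 0.457). The opposite directions of miR-26 in the sources were thus seen for members of both lists. They were also seen for 34.0% of all 156 miRNAs measured in both sources, so they were not particular to the lists.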

How the data were processed

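The 4 libraries were small RNA libraries of exosomes, 1 per age and source, grouped by the age and source in the labels. The authors counted reads per mature miRNA and deposited raw read counts. Bowtie2 2.2.9 and the build GRCm38 are named in the submitters' processing notes, without options. RPM were deposited too by the authors, scaled to a library total that exceeds the miRNA reads. Their deposited fold change, p-value and FDR columns compare single libraries and were not used.

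CPM of the miRNA reads, ratios and exact 95% intervals were computed from these counts, with at least 10 reads in 1 library for a miRNA to be measured and a ratio of 2 with an interval without 1 for a call. No p-value was made, since each condition has 1 library. Log2 ratios for medians and profiles used 0.5 added reads, and a floor of 3 reads was used for bounds. Calls were tested on simulated counts with counting error only, so that test cannot give an error rate for variation between libraries. The members, the lists of adipogenic miRNAs, the references and the rule for named miRNAs were chosen with earlier results of these data known. Named were the members, their 3p arms, miRNAs of the same seed, 4 references, of each list the 4 with most reads and those called in both sources, the 5 nearest profiles and the neighbours in rank.

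Other scalings were TMM factors (edgeR 4.0.16), DESeq2 1.42.0 size factors, the authors' RPM and totals without the 5 most abundant miRNAs. Relative to CPM they shift all log2 ratios by 0.07, 0.52, 1.47 and -0.15 in SI-Exos over age, by 0.19, 0.10, 0.15 and 0.39 in serum exosomes over age, by -1.15, -0.97, -2.37 and -0.95 between sources at 3 months and by -1.17, -0.92, -3.69 and 0.03 at 18 months. The TMM and DESeq2 factors were computed for each pair of libraries without a minimum of reads, so miRNAs with few reads took part. The DESeq2 size factors gave a scale of 1 between the serum libraries and of 0.5 between sources at 3 months. Other alternatives were a ratio of 1.5 or 4, a minimum of 1 or 50 reads and 2 added reads. Gene positions came from RefSeq and introns from GENCODE on GRCm38. The computation used Python 3.11.15, numpy 2.4.6, pandas 2.3.3, scipy 1.17.1, matplotlib 3.10.9 and R 4.3.3.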

Additional observations from a re-analysis of the deposited data

Results flagged for a closer look

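The age ratios of both miRNAs ran in opposite directions in the 2 sources. The ratio of 3 months over 18 months was 1.74 in SI-Exos and 0.658 in serum exosomes for miR-26a-5p, and 1.94 and 0.678 for miR-26b-5p. With 1 library per condition the difference between the sources was not tested. Of 156 miRNAs measured in both, 53 (34.0%) shared these directions, the 4 references included. Over all measured miRNAs the median log2 ratio was 0.45 (SI-Exos) and -0.38 (serum). The opposition depended on the denominator. For miR-26a-5p the SI-Exos and serum values were 1.48 and 1.55 relative to miR-16-5p, and 1.16 and 1.89 relative to miR-191-5p. They were 0.595 and 0.994 relative to let-7a-5p, and against miR-103-3p both intervals held 1. Other miRNAs moved between the same libraries. In SI-Exos the epithelial miRNAs together took 26.7% of the reads at 3 months and 8.17% at 18 months, with miR-200b-3p at 0. Only miR-215-5p of them was not higher at 3 months there, with a log2 ratio of -0.12. The red blood cell miRNAs took 0.630% and 3.77%. In serum exosomes the red blood cell miRNAs took 21.97% and 53.8%, the liver's miR-122-5p 38.4% and 2.65%, and the epithelial miRNAs together 1.68% and 0.655%. Among the epithelial miRNAs in serum exosomes, only miR-192-5p and miR-194-5p were higher at 3 months, with log2 ratios of 1.94 and 0.44. The others went the other way: miR-215-5p (-2.29), miR-429-3p (-1.52), miR-200b-3p (-1.39), miR-200a-3p (-0.39) and miR-200c-3p (-0.04). The part of all these miRNAs in the miR-26 ratios was not tested.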

How the results depend on the processing

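The balance of miR-26a-5p and miR-26b-5p within a library is free of scaling, and the depth of 18m-SI-Exos, with 100 reads of miR-26b-5p, sets its widest interval. No paired analysis was possible because each condition has 1 library, and leaving out a library was not run for the same reason. The cause of the changes below was not tested.

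Age ratios of miR-26a-5p in SI-Exos were 1.83 (TMM), 2.49 (DESeq2), 4.84 (RPM) and 1.57 (totals without the 5 most abundant), and those of miR-26b-5p 2.77 (DESeq2) and 5.39 (RPM). In serum exosomes they were, in the first order, 0.751, 0.703, 0.729 and 0.863 for miR-26a-5p and 0.775, 0.725, 0.752 and 0.890 for miR-26b-5p. With a ratio of 1.5 for a call, miR-26a-5p was called at 1.74 in SI-Exos, at 0.658 in serum exosomes and at 1.67 between sources at 18 months, and miR-26b-5p at 1.94 in SI-Exos. At this limit, 79 of 214 miRNAs were called higher and 70 lower at 3 months in SI-Exos, and 58 and 86 of 251 in serum exosomes. Between sources at 18 months, 85 of 231 were called higher and 75 lower in SI-Exos. With a ratio of 4, miR-26b-5p at 0.288 between sources at 18 months was no longer called. Source ratios at 3 months were 1.98, 2.25, 0.855 and 2.28 for miR-26a-5p, of which 0.855 by RPM turned the direction, and 0.370, 0.419, 0.159 and 0.425 for miR-26b-5p. At 18 months they were 0.741 (TMM), 0.878 (DESeq2) and 0.129 (RPM) for miR-26a-5p, all against the direction by CPM, and 0.128, 0.152 and 0.0222 for miR-26b-5p.

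The share of miR-26 in 3m-SI-Exos, 18m-SI-Exos, 3m-serum-exos and 18m-serum-exos was 9.77%, 6.16%, 4.99% and 6.26% of reads without the 5 most abundant, and 0.0573%, 0.0118%, 0.0829% and 0.113% of the totals behind the RPM.

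Over all miRNAs in SI-Exos, the calls higher and lower at 3 months were 131 and 31 by RPM, and 30 were lower with a minimum of 50 reads. In serum exosomes a ratio of 4 gave 22 higher and 19 lower, a minimum of 50 reads 28 and 39, and totals without the 5 most abundant 38 lower. Between sources at 3 months, RPM gave 50 higher and 133 lower in SI-Exos, TMM 105 lower and a minimum of 50 reads 66 higher. At 18 months RPM gave 41 higher and 173 lower, and a minimum of 50 reads 45 higher.

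Of the list favouring fat cell formation, 8 (DESeq2) or 13 (RPM) were higher in SI-Exos at 3 months, and 0 lower by RPM or a minimum of 50 reads. At that minimum the members lower by CPM, miR-146b-5p, miR-204-5p and miR-320-3p, were no longer measured, with at most 38 reads in SI-Exos. A ratio of 4 left 1 higher and 0 lower in either source. At this limit, 49 of all 214 miRNAs were called higher and 45 lower in SI-Exos. In serum exosomes the calls at this limit were 22 and 19 of all 251. Of this list, 2 were lower in serum exosomes with totals without the 5 most abundant, and 3 with TMM, DESeq2 or RPM. Of the opposing list in SI-Exos, 0 were lower by RPM or a minimum of 50 reads, 2 with a ratio of 1.5, and 1 was higher with a ratio of 4. In serum exosomes 1 was lower with totals without the 5 most abundant or a minimum of 50 reads, 5 with a ratio of 1.5, and 0 were higher or lower with a ratio of 4. At a minimum of 50 reads, miR-222-3p in SI-Exos (8 and 12 reads) and miR-155-5p in serum exosomes (17 and 46 reads), both lower by CPM, were no longer measured. Of the 5 nearest profiles of each member, 3 remained with a minimum of 50 reads and 5 with RPM or 2 added reads.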
